A study of Mus musculus with 44 samples.

Results

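The genes described here encode the proteins of the mitochondrial ribosome (mitoribosome), measured in macrophages (MFs) sorted from injured mouse muscle. Members were all probe sets with 1 gene symbol that starts with Mrpl or Mrps and a digit. For a gene with several such probe sets, the one with the highest mean over all arrays was used. This gave 77 genes of the 19938 on the arrays, namely 26 of the small subunit (Mrps), 50 of the large subunit (Mrpl, with Mrps18a and Mrps30, whose proteins lie in the large subunit) and Mrps36. The protein of Mrps36 is now counted as part of the oxoglutarate dehydrogenase complex of the TCA cycle and not as a ribosomal subunit, although the symbol is kept. Mrpl53 shares its only probe set with Ccdc142 and was left out.

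RNA from 44 samples in 10 groups was hybridised to Affymetrix arrays after injection of cardiotoxin, a muscle-damaging component of snake venom, into the tibialis anterior muscle. Leukocytes (CD45+) were bead-selected and sorted on Ly6C, a surface marker of inflammatory monocytes, and on the MF surface antigen whose gene is Adgre1, which gives the suffixes low and high below. For wild-type (WT, C57B6/J) Ly6C+ F4/80low MFs there were 4, 6 and 4 arrays from days 1, 2 and 4 after injury. The corresponding knockout (KO) groups (C57B6/J, PPARg fl/fl, LysM Cre+) had 4, 5 and 4 arrays. Ly6C- F4/80high MFs were taken at day 2 only, with 6 WT and 5 KO arrays. WT mice under rosiglitazone, an agonist of the nuclear receptor PPARγ, gave 3 Ly6C+ and 3 Ly6C- arrays at day 2. In the KO, Cre is driven from the LysM (Lyz2) locus of myeloid cells and removes the floxed part of Pparg. The age of the animals is not given. The array titles number the arrays of a group as biological replicates. The design text speaks of 3 animals, which is not taken here as the number for the whole series. The labels tie no array to an animal, so p-values measure the spread between arrays. Precision is limited by how many arrays a group had.

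Mitochondria keep their own small genome, which encodes a few core subunits of the respiratory chain together with the rRNAs and tRNAs needed to translate them. The mitoribosome that makes these subunits is built on mitochondrial rRNA, whereas all of its proteins are encoded in the nucleus, made in the cytosol and imported. Some of the proteins descend from bacterial ribosomal proteins and others are found only in mitochondrial ribosomes. By the names used for mitoribosome proteins, 46 members are classed as having a bacterial homologue and 30 as mitochondria-specific. The classes rest on these names alone, and sequences were not compared.

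Promoters of genes for mitochondrial proteins are known for binding sites of ETS factors such as GABPA (also called NRF2), of NRF1 and of YY1, and the sequences before the gene start therefore go first. Windows from 250 bases before to 50 after each annotated start (RefSeq, GRCm38.p6) were found for 68 of the 77 members, which had 74 windows. The ETS core CCGGAA, searched on both strands, was in 56.8% of these windows and in 14.9% of the 32851 windows of all genes. The NRF1 core GCATGCG was in 10.8% against 3.58%, the YY1 core GATGGCG in 10.8% against 3.49%, and the E-box CACGTG in 9.46% against 7.15%. At least 1 of the first 3 cores was in 66.2% of the members' windows and in 19.8% of all windows. A match is a description of the letters, and binding was not measured.

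The 250 bases before the start are given below for 3 members with some of the largest rises and for the member that fell in Ly6C- MFs, since both kinds hold the ETS core. The sequences run 5′ to 3′ on the strand of the gene, and capitals mark the matches. Mrpl51 lies on the plus strand and the stretch is chr6:125191950-125192199. Mrps33 lies on the minus strand with chr6:39810937-39811186. Mrpl34 lies on the plus strand with chr8:71464676-71464925. Mrpl33 lies on the plus strand with chr5:31613701-31613950, and its second match is the NRF1 core. All are in GRCm38.p6.
Mrpl51: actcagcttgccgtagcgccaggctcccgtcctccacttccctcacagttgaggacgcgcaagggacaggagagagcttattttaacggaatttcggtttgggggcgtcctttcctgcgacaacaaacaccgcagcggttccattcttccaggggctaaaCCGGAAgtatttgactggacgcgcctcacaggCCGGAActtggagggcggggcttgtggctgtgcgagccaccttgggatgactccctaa
Mrps33: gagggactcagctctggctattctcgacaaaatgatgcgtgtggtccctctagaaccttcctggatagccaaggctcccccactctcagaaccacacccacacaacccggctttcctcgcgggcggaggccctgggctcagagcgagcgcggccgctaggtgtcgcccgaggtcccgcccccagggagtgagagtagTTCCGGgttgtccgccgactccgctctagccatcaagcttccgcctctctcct
Mrpl34: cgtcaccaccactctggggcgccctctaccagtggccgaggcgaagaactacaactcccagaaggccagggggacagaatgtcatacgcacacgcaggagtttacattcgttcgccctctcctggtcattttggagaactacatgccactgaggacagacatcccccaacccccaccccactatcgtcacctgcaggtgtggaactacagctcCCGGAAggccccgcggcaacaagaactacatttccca
Mrpl33: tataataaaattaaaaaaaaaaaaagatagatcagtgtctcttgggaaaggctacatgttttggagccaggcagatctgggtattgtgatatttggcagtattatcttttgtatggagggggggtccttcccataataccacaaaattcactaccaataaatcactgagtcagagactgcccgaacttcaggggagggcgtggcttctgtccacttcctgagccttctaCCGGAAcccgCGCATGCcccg

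Counted back from the start, the matches began at -90 and -58 in Mrpl51, at -53 in Mrps33 and at -37 in Mrpl34. In Mrpl33 the ETS core began at -21 and the NRF1 core at -11. The ETS core was held by 29 of the 51 members with a window that rose in WT Ly6C- MFs, as given below, and by 10 of the 17 others. The core was thus about as frequent in the members that rose as in the rest.

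Before the comparisons, the labels were read against marker genes. The 7 macrophage markers had group means of 11.3 to 11.8 on the log2 scale, so all groups carried this signature. Between the WT subsets of day 2, 3 of them were higher and 2 lower in Ly6C- MFs. All 4 measured monocyte markers were lower in Ly6C- MFs, in WT (median difference -3.05), in KO (-3.04) and under rosiglitazone (-3.68). At day 4 all 4 were lower than in Ly6C+ MFs of day 2 too (-1.72 in WT, -2.08 in KO). The part of these markers in the members' differences was not tested. The day 2 subsets were apart in the probe sets shared by Ly6c1 and Ly6c2, with group means of 11.9 to 12.3 in Ly6C+ and of 8.70 to 9.64 in Ly6C- MFs. The day 4 arrays labelled Ly6C+ lay between them, at 9.88 and 10.2 in WT, and Igf1 at day 4 (11.1 in WT) was as high as in WT Ly6C- MFs at day 2 (10.9). The day 4 groups thus do not match their label in these genes, and each is compared below with both day 2 subsets. Pparg itself passed in none of the 4 comparisons of KO with WT, with differences of 0.0006 to 0.24. Whether its probe set covers the deleted part is not given in the sources used here. Lyz2, the locus that carries Cre, had values of 8.67 to 9.29 on WT day 2 replicates 1 to 3 and of 12.64 to 13.02 on WT day 2 replicates 4 to 6, over both subsets. KO groups had means of 9.49 to 9.72 and the other WT groups of 12.95 to 13.01. WT day 2 replicates 1 to 3 thus do not match the other WT arrays in Lyz2, and each WT day 2 comparison was also made with either set alone.

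These 2 replicate sets differed in the members as well, in a comparison that was added after the data were seen. Between WT day 2 replicates 1 to 3 and 4 to 6, over both subsets, 31 of the 77 members passed, 7 higher and 24 lower in replicates 1 to 3, where 20.8% of all genes passed, 10.5% as higher and 10.3% as lower. The median difference was -0.13 (all genes 0.03). The greatest gap was in Mrpl40, a large subunit protein, which was 0.97 lower in replicates 1 to 3 (SE 0.08, limma adjusted p = 4.39e-11). Markers of other cells moved with this split in the Ly6C+ arrays. The mean of the endothelial markers was 7.29, 7.20 and 7.12 in replicates 1 to 3 and 6.50, 6.90 and 6.97 in replicates 4 to 6, and that of the fibroblast markers was 7.37, 6.99 and 6.98 against 6.50, 6.53 and 6.75, so replicates 1 to 3 were the high ones in both. In the Ly6C- arrays the sets overlapped in both lists. The part of these markers in the members' differences was not tested. Values of members are log2 values throughout, a difference of 1 being a doubling, and errors are the SD over arrays or the SE of a fitted difference. A member passed where limma's two-sided p, adjusted by Benjamini-Hochberg over all 19938 genes, was under 0.05. The words rose, fell, higher and lower stand for such members alone.

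The first question was whether the subsets of day 2 differ in their mitoribosome genes. In WT, 57 of the 77 members were higher and 1 was lower in Ly6C- than in Ly6C+ MFs, so 58 passed, where 45.2% of all genes passed, 22.2% as higher and 23% as lower. The median difference of the members was 0.37, a 1.29-fold increase, with single members from -0.44 to 1.30, and that of all genes was -0.07. The median of the members on each array, averaged over a group, was 8.24 ± 0.12 (SD, n = 6) in WT Ly6C+ and 8.57 ± 0.10 (SD, n = 6) in WT Ly6C- MFs. After quantile normalization the median difference was 0.24 (all genes -0.03). The shift was thus small for a typical member and shared by most of them.

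**Figure D1:**
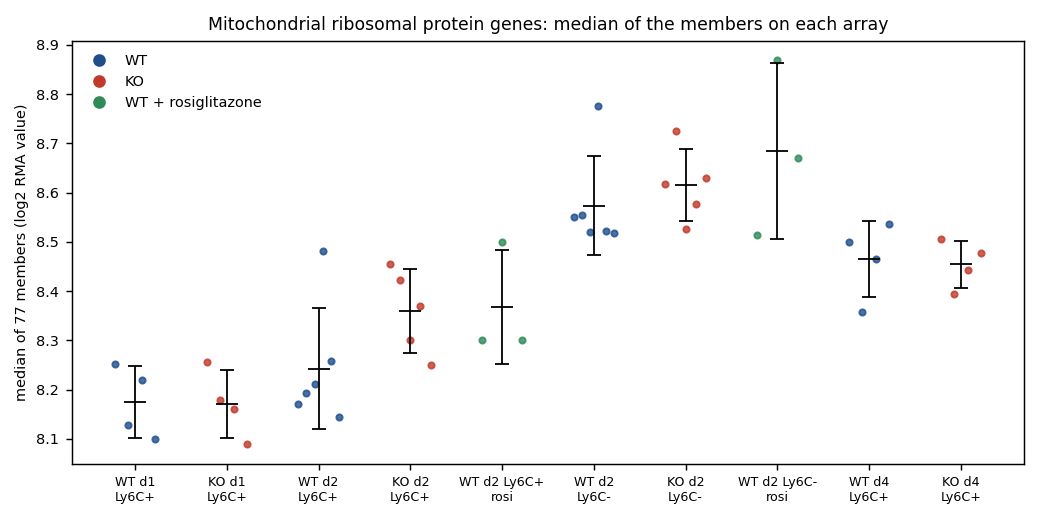
Median of the 77 members on each array (y axis, log2 RMA value) for the 10 groups (x axis; d, day; rosi, rosiglitazone); points are arrays, and bars are the group mean with its SD. Group means rise from 8.17 at day 1 to 8.24 in WT and 8.36 in KO Ly6C+ MFs at day 2, lie from 8.57 to 8.68 in the 3 Ly6C- groups, and at 8.46 and 8.45 at day 4.

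Both subunits held members that rose. Of the small subunit members 20 of 26 were higher and none lower, with a median of 0.34, and of the large subunit members 36 of 50 were higher and 1 lower, with a median of 0.37. Members classed as having a bacterial homologue had a median of 0.32 (32 of 46 higher, 1 lower), and members classed as mitochondria-specific one of 0.41 (24 of 30 higher). These medians were not tested against each other.

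Mrps36 had the largest rise. It ran from 6.43 to 6.83 (median 6.73) in WT Ly6C+ and from 7.74 to 8.44 (median 7.99) in WT Ly6C- MFs. The groups did not overlap, which held for 14.8% of all genes. The difference was 1.30 (SE 0.12, limma adjusted p = 5.28e-12), and the second probe set of the gene gave 1.39. Of the ribosomal subunits proper, Mrpl51, a mitochondria-specific protein of the large subunit, rose most. Its values ran from 7.91 to 8.54 (median 8.09) in Ly6C+ and from 9.03 to 9.48 (median 9.17) in Ly6C- MFs, again without overlap. Mrpl51 rose by 1.08 (SE 0.10, limma adjusted p = 1.2e-11), and its second probe set gave 1.07. In Mrpl47, by contrast, the probe set used gave 0.16 and the second 0.64. A probe set can also bind RNA of near-identical gene copies, which was not tested.

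Among small subunit proteins, Mrps33 was at 8.29 to 8.52 (median 8.34) in Ly6C+ and at 8.80 to 9.50 (median 9.19) in Ly6C- MFs. All Ly6C- arrays were above all Ly6C+ arrays, and the rise was 0.80 (SE 0.11). The second probe set of Mrps33 gave 0.62. Mrps22, a mitochondria-specific protein of the small subunit, was at 7.72 to 7.98 (median 7.90) and 8.41 to 8.91 (median 8.52), which is a rise of 0.72 (SE 0.09) without overlap. Mrps15 rose by 0.79 (SE 0.11), although 1 Ly6C+ array, replicate 5 at 8.80, lay well below the others of its group. Mrps18c, which has a bacterial S18 homologue, rose by 0.48 (SE 0.11) with overlapping groups.

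Among large subunit proteins with a bacterial homologue, Mrpl34 rose by 0.79 (SE 0.11), Mrpl18 by 0.78 (SE 0.12) and Mrpl13 by 0.72 (SE 0.13). Ly6C+ and Ly6C- arrays did not overlap in Mrpl34 and Mrpl18, and did in Mrpl13. Mrpl3, which lies close to the peptidyl transferase centre in bacterial ribosomes, was at 8.91 or more in Ly6C+ and rose by 0.49 (SE 0.08) without overlap. Mrpl12, a stalk protein that binds translation factors, was at 7.82 to 8.27 (median 8.08) in Ly6C+ and at 8.25 to 8.50 (median 8.35) in Ly6C- MFs, a rise of 0.27 (SE 0.07) with overlapping groups. Mrpl44, which resembles an RNase III, rose by 0.24 (SE 0.08). By limma, the adjusted p of the members named since Mrps33 ran from 5.26e-08 to 0.0109.

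Mrpl33 was the single member that was lower in Ly6C- MFs. This small protein of the large subunit was at 7.91 to 8.64 (median 8.13) in WT Ly6C+ and at 7.49 to 7.95 (median 7.82) in WT Ly6C- MFs. The difference was -0.44 (SE 0.09, limma adjusted p = 7.22e-05), and 5 of the 6 Ly6C- arrays were below all Ly6C+ arrays. Mrps12, a protein of the decoding centre, did not pass, with a difference of -0.11 (SE 0.08), and 0.0039 with WT day 2 replicates 4 to 6 alone. The count was 50 with replicates 1 to 3 of WT day 2 alone (34.8% of all genes) and 45 with replicates 4 to 6 alone (30% of all genes).

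**Figure D2:**
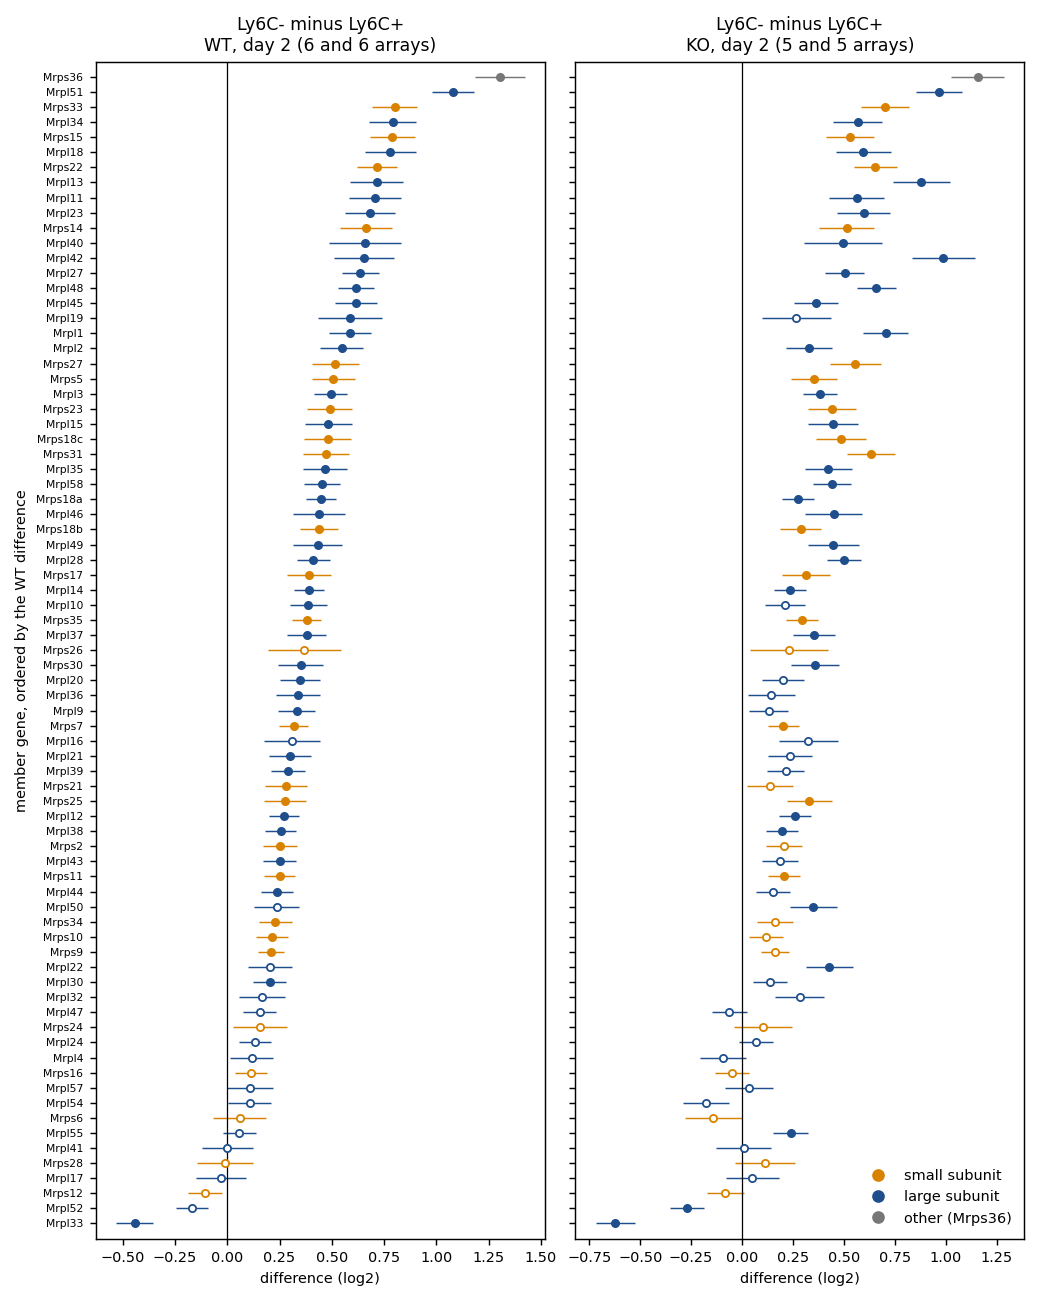
Difference between Ly6C- and Ly6C+ MFs at day 2 (x axis, log2) for each of the 77 members (y axis, in the order of the WT difference), in WT (left) and KO (right); bars are the SE, filled points passed limma's test and open points did not, and colours mark the subunit. Most points lie to the right of 0, from Mrps36 at 1.30 and Mrpl51 at 1.08 in WT down to Mrpl33 at -0.44.

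In KO, 45 members were higher and 2 lower in Ly6C- than in Ly6C+ MFs, so 47 passed, where 38.4% of all genes passed, 19.8% as higher and 18.6% as lower. The median difference was 0.29, and that of all genes was -0.09, against 0.17 and -0.03 after quantile normalization. Mrps36 (1.16, SE 0.13), Mrpl42 (0.99, SE 0.16), a mitochondria-specific large subunit protein, and Mrpl51 (0.97, SE 0.11) rose most. In Mrpl51 the KO arrays were at 8.35, 8.48, 7.97, 8.35 and 8.10 in Ly6C+ and at 9.17, 9.45, 9.14, 9.16 and 9.17 in Ly6C- MFs. The Ly6C- arrays were thus all higher. Mrpl33 fell by 0.62 (SE 0.10), from 8.27, 8.18, 8.21, 8.38 and 8.55 in Ly6C+ to 7.70, 7.76, 7.70, 7.58 and 7.74 in Ly6C- MFs, without overlap. The KO subsets did not overlap in 32.9% of all genes. Mrpl52, also of the large subunit, fell by 0.27 (SE 0.08), where WT gave -0.17 (SE 0.08), which did not pass. The limma adjusted p of these KO values ran from 1.87e-09 to 0.011. Mrps22, Mrpl3, Mrps18c and Mrpl12 passed as higher in KO too, whereas Mrpl44 (0.15, SE 0.08) and Mrps12 did not pass. The test of the difference between the WT and KO subset effects passed for 0 members by limma (0.01% of all genes). An unadjusted p below 0.05 was found for 0 members and for 559 of the 19938 genes.

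Under rosiglitazone, 33 members were higher and 1 was lower in Ly6C- MFs, so 34 passed, where 23.2% of all genes passed, 14.6% as higher and 8.68% as lower. The median difference was 0.32 (all genes -0.04), with 3 arrays a group. Mrps36 (1.32, SE 0.17), Mrpl23 (1.00, SE 0.17) and Mrpl11 (0.97, SE 0.18), both of the large subunit, rose most, and Mrpl33 fell by 0.59 (SE 0.12). Mrpl33 was at 8.41, 8.58 and 8.42 in Ly6C+ and at 7.84, 7.91 and 7.88 in Ly6C- MFs, so the groups did not overlap. That held for 33.3% of all genes. Same-numbered arrays of the rosiglitazone groups deviated together (r of 0.13 to 0.44), and 35 members passed with the replicate number as a block. The rosiglitazone subset effect passed as different from the untreated one for 0 members by limma (0.015% of all genes). An unadjusted p below 0.05 was found for 3 members and for 1547 of the 19938 genes. Leaving out Ly6C+ replicate 1 of the rosiglitazone group left 22 members.

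Other genes needed for mitochondrial translation were read from lists. In WT at day 2, 12 of 13 measured translation factors were higher in Ly6C- MFs and none lower, with a median of 0.47. Guf1, a GTPase of mitochondrial translation, rose by 1.03 (SE 0.15), Tufm, the elongation factor that brings tRNA to the ribosome, by 0.62 (SE 0.08), Gfm1, the translocation factor, by 0.60 (SE 0.10) and Mtif2, an initiation factor, by 0.55 (SE 0.09). Of 26 assembly factors 12 were higher and 1 lower (median 0.20), with Tfb1m, an rRNA methyltransferase, at 0.79 (SE 0.12) and Fastkd2 at 0.71 (SE 0.09). Ddx28, an RNA helicase of large subunit assembly, fell by 0.31. Of 16 mitochondrial aminoacyl-tRNA synthetases 8 were higher and none lower (median 0.22), led by Rars2 at 0.87 (SE 0.12) and Iars2 at 0.69 (SE 0.08). Of 4 measured mitoribosome proteins with other names, Ptcd3, Chchd1 and Gadd45gip1 were higher by 0.29 to 0.41, and Dap3 did not pass. In the limma fit, the adjusted p of the genes said here to have risen or fallen was 0.0392 or less.

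The machinery around the mitoribosome moved in the same direction in this comparison. Of 10 genes of mitochondrial transcription and DNA upkeep 6 were higher (median 0.31), among them Tfam, which packages mitochondrial DNA, at 0.61 (SE 0.12). Of 34 nuclear-encoded complex I subunits 27 were higher (median 0.45), and of 22 genes of mitochondrial protein import 15 (median 0.32), with none lower in either list. Cytosolic ribosomal proteins had a median of 0.07, and 3 of 59 were higher. Of 21 cell cycle genes 18 were higher, with a median of 1.00, for example Mcm6, a subunit of the replicative helicase, at 1.90 (SE 0.11). Of 9 regulators of mitochondrial biogenesis Ppargc1b rose by 0.47 (SE 0.09), Nrf1 fell by 0.25 (SE 0.07) and the others, Gabpa and Yy1 among them, did not pass. The part of cell cycle genes in the members' difference was not tested. Among markers of other cells, 5 of 6 endothelial, 5 of 7 fibroblast, 3 of 6 T and NK cell, 2 of 5 dendritic cell and 2 of 10 muscle fibre markers were lower in WT Ly6C- MFs and none higher. Neutrophil markers had 2 of 10 higher and 4 lower, and B cell markers 1 of 3 higher and 1 lower. The level of the endothelial and fibroblast lists, given as the mean of the list on an array, ran from 6.50 to 7.29 and from 6.36 to 6.63 for endothelium and from 6.50 to 7.37 and from 6.41 to 6.68 for fibroblasts, in Ly6C+ and Ly6C- MFs. In KO Ly6C- MFs 12 of 13 translation factors (median 0.47) and 26 of 34 complex I subunits (median 0.40) were higher. The endothelial and fibroblast markers passed as lower in KO for 2 of 6 and 0 of 7 genes. Lower there too were 3 of 5 dendritic cell, 2 of 6 T and NK cell and 2 of 10 muscle fibre markers. Neutrophil markers had 1 of 10 higher and 4 lower in KO, and 1 of 3 B cell markers was higher. The part of these markers in the result was not tested. In sorted cells, fewer cells of a type and less RNA per cell cannot be told apart.

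**Figure D3:**
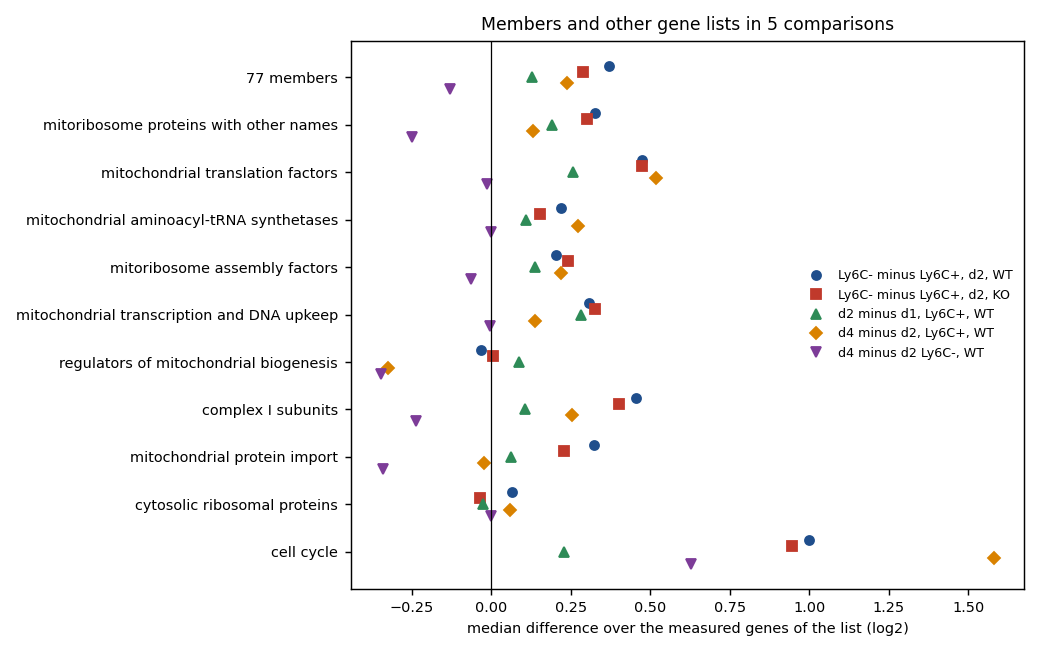
Median difference (x axis, log2) of the 77 members and of 10 other gene lists (y axis) in 5 comparisons, shown by symbol and colour (d, day). Members, translation factors and complex I subunits lie to the right of 0 between the day 2 subsets (0.37, 0.47 and 0.45 in WT), and cytosolic ribosomal proteins lie near 0 in all 5.

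The next question was how the members change with time after injury. From day 1 to day 2 in WT Ly6C+ MFs, 9 members rose and 1 fell, so 10 passed, where 9.69% of all genes passed, 6.51% as higher and 3.17% as lower, and the median difference was 0.13 (all genes 0.02), or 0.06 (all genes -0.01) after quantile normalization. Mrpl42 rose by 0.61 (SE 0.16), Mrpl22 by 0.57 (SE 0.12) and Mrpl50 by 0.53 (SE 0.12), all of the large subunit. Mrpl42 was at 6.51, 6.42, 6.11 and 6.37 at day 1 and at 6.63 to 7.67 (median 6.77) at day 2, so the day 2 arrays were all higher. Arrays of the 2 days did not overlap in 6% of all genes. Mrpl33 fell by 0.32 (SE 0.10), from 8.54, 8.40, 8.58 and 8.62 at day 1. On the WT day 2 arrays it was at 7.97, 7.99 and 7.91 in replicates 1 to 3 and at 8.51, 8.64 and 8.26 in replicates 4 to 6, so that replicates 1 to 3 were apart from day 1 and replicates 4 to 6 were not. The limma adjusted p of these values was 0.0271 or less. The share of members that passed was close to the background. Of 10 neutrophil markers 2 were lower at day 2, and 1 of 7 fibroblast, 1 of 6 endothelial and 1 of 5 dendritic cell markers were higher. The mean of the neutrophil markers was 7.06 to 7.15 at day 1 and 6.72 to 6.96 at day 2, and the part of these markers in the result was not tested. With replicates 1 to 3 of WT day 2 alone 22 members passed, where 17.1% of all genes did, and 14 rose and 8 fell, against 10.6% and 6.46% of all genes. With replicates 4 to 6 alone 20 members rose and none fell, where 10.6% of all genes passed, 7.77% as higher and 2.86% as lower. The count was 2 in a fit to the compared arrays only, and 5 without day 1 replicate 3.

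In KO Ly6C+ MFs, 15 members rose and none fell from day 1 to day 2, where 8.64% of all genes passed, 6.06% as higher and 2.58% as lower, and the median difference was 0.21 (all genes -0.02), or 0.10 (all genes -0.01) after quantile normalization. Mrps27, a mitochondria-specific protein of the small subunit, rose by 0.56 (SE 0.13), Mrps5, which has a bacterial S5 homologue, by 0.53 (SE 0.12) and Mrps36 by 0.51 (SE 0.14). Mrps22 rose from 7.65, 7.37, 7.62 and 7.64 at day 1 to 8.02, 8.22, 7.88, 8.01 and 7.98 at day 2. The groups did not overlap, which held for 12% of all genes. The Mrps22 difference was 0.45 (SE 0.11), and Mrpl3 rose by 0.34 (SE 0.09). Adjusted by limma over all genes, the p of these values was 0.0159 or less. Of 10 neutrophil markers 3 were lower at day 2, with a mean of 7.09 to 7.23 at day 1 and of 6.77 to 7.01 at day 2, endothelial markers had 1 of 6 higher and 1 lower, and 1 of 3 B cell markers was higher. Their part in the result was not tested. The count was 6 with array medians set equal, 4 after quantile normalization and 5 without KO day 1 replicate 4. The share of all genes in these settings is not given, so the drop need not be particular to the members. The change from day 1 to day 2 passed as different between KO and WT for 0 members by limma (0.01% of all genes). In that test 9 members and 1782 of the 19938 genes had an unadjusted p below 0.05. With replicates 1 to 3 of WT day 2 alone 7 members passed (5.57% of all genes).

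The day 4 arrays labelled Ly6C+ had 36 members higher and 6 lower than WT Ly6C+ MFs of day 2, so 42 passed, where 49.8% of all genes passed, 23.8% as higher and 26% as lower. The share of members that passed was thus near the background, whereas their median was 0.24 and that of all genes -0.09. After quantile normalization these medians were 0.11 and -0.04. Mrps36 (1.12, SE 0.13), Mrpl51 (0.99, SE 0.11) and Mrpl40 (0.83, SE 0.19) rose most. Mrpl51 was at 9.23, 9.09, 9.23 and 8.97 at day 4, above all day 2 Ly6C+ arrays. Day 4 and day 2 Ly6C+ arrays of WT did not overlap in 30.3% of all genes. Mrpl40 was at 10.6, 10.7, 10.7 and 10.5 at day 4, against 9.35, 9.24 and 9.20 in WT day 2 replicates 1 to 3 and 10.4, 10.2 and 10.2 in replicates 4 to 6. All day 4 arrays were above all day 2 arrays, and replicates 1 to 3 were the farthest below. Mrps22 (0.26, SE 0.11) and Mrpl44 (0.44, SE 0.09) rose as well. Of 13 translation factors 10 were higher at day 4 (median 0.52), and of 21 cell cycle genes 20 (median 1.58). Complex I subunits had 19 of 34 higher and 2 lower (median 0.25). Not all of the machinery moved this way. Import genes had 4 of 22 higher and 6 lower (median -0.02), and regulators of mitochondrial biogenesis 1 of 9 higher and 5 lower (median -0.32). Markers moved too. Neutrophil markers had 8 of 10 lower and 1 higher at day 4, and their mean was 6.72 to 6.96 at day 2 and 6.34 to 6.43 at day 4. Of 10 muscle fibre markers 6 were higher, and of 6 endothelial markers 4 were lower. Higher as well were 1 of 7 fibroblast and 2 of 6 T and NK cell markers. Dendritic cell markers had 1 of 5 higher and 2 lower, and B cell markers 1 of 3 higher and 1 lower. The part of these markers in the result was not tested.

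Falls toward day 4 were found too. Mrps28, a small subunit protein, was at 7.38, 7.19, 7.43 and 7.29 at day 4 and at 7.88 to 9.28 (median 8.23) at day 2, a fall of 1.06 (SE 0.15) without overlap. Mrpl33 fell by 0.69 (SE 0.10) and Mrpl52 by 0.66 (SE 0.09). Mrpl33 was at 7.53, 7.40, 7.64 and 7.54 at day 4, below all day 2 Ly6C+ arrays. The limma adjusted p of the values named for day 4 against day 2 in WT was 0.0408 or less. In KO 21 members rose and 9 fell, so 30 passed, where 44.8% of all genes passed, 22.3% as higher and 22.5% as lower, with a median of 0.15 (all genes -0.08), or 0.03 (all genes -0.04) after quantile normalization. Mrpl1, the L1 stalk protein, rose by 0.82 (SE 0.12), Mrpl51 by 0.78 (SE 0.12) and Mrpl13 by 0.68 (SE 0.15), whereas Mrps28 (-0.85, SE 0.16), Mrpl33 (-0.79, SE 0.10) and Mrpl52 (-0.69, SE 0.09) fell. By limma, the adjusted p of these KO values was 0.000199 or less. In KO, neutrophil markers had 7 of 10 lower and 1 higher (mean of 6.77 to 7.01 at day 2 and of 6.40 to 6.48 at day 4), muscle fibre markers 6 of 10 higher and 1 lower, and fibroblast markers 3 of 7 higher. Endothelial markers had 1 of 6 lower, dendritic cell markers 1 of 5 higher and 1 lower, and B cell markers 1 of 3 higher and 1 lower. Their part in the result was not tested. The change passed as different between KO and WT for 0 members by limma (0.0301% of all genes). In that test 5 members and 1686 of the 19938 genes had an unadjusted p below 0.05. With replicates 1 to 3 of WT day 2 alone 7 members passed (4.8% of all genes).

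**Figure D4:**
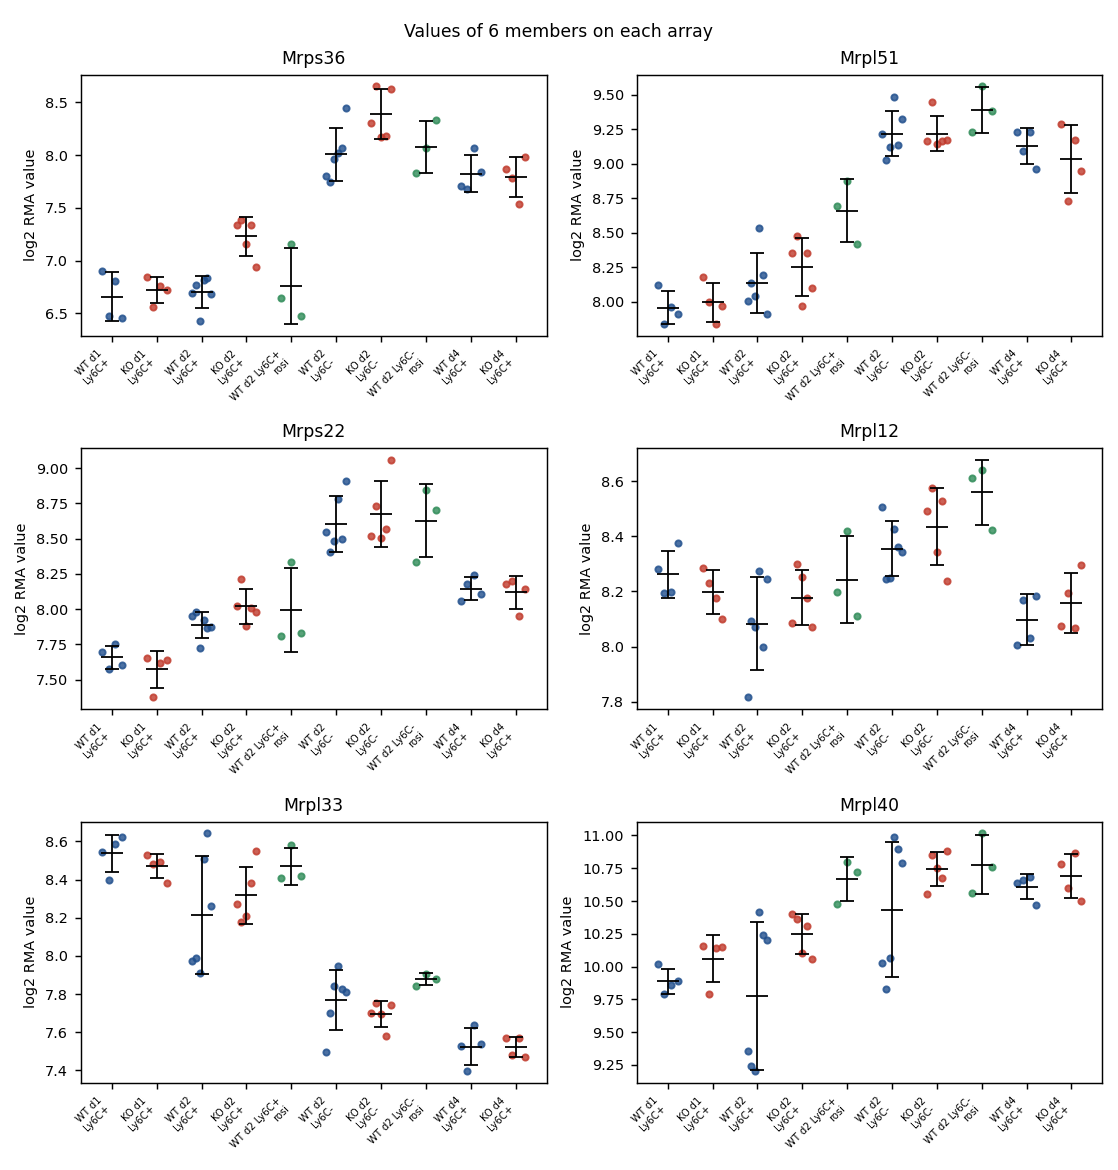
Values of 6 members on each array (y axes, log2 RMA value) in the 10 groups (x axes; d, day; rosi, rosiglitazone); points are arrays, and bars are the group mean with its SD. Mrpl51 rises from about 8.14 in WT Ly6C+ to 9.22 in WT Ly6C- MFs of day 2, Mrpl33 goes the other way, and Mrpl40 falls into separate clusters within the WT day 2 groups.

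Since the day 4 arrays resembled Ly6C- MFs in marker genes, they were also set against Ly6C- MFs of day 2. In WT no member was higher and 17 were lower at day 4, where 29.3% of all genes passed, 14.1% as higher and 15.2% as lower. The median was -0.13 (all genes -0.01). Mrps28 fell by 1.05 (SE 0.15), Mrpl20, an early-binding large subunit protein in bacteria, by 0.65 (SE 0.11) and Mrps18b by 0.59 (SE 0.10). Mrps28 was at 7.90 to 8.55 (median 8.44) in WT Ly6C- MFs of day 2, so the groups did not overlap. That was the case for 22.7% of all genes. Mrps22 (-0.46, SE 0.11), Mrpl3 (-0.35, SE 0.09) and Mrpl12 (-0.26, SE 0.08) fell too. Mrpl12 was at 8.01, 8.17, 8.03 and 8.18 at day 4, all below the lowest Ly6C- array of day 2. The limma adjusted p of these values was 0.0116 or less. With replicates 1 to 3 of WT day 2 alone, 6 members were higher and 20 lower at day 4, where 34.7% of all genes passed, 16.3% as higher and 18.4% as lower. With replicates 4 to 6 alone 1 was higher and 21 were lower, where 24.1% of all genes passed, 11.5% as higher and 12.6% as lower, so either set alone gave higher members where both together gave none. The count was 11 without day 4 replicate 2.

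In KO no member was higher and 23 were lower at day 4 than in Ly6C- MFs of day 2, where 24.8% of all genes passed, 13.1% as higher and 11.8% as lower, with a median of -0.17 (all genes 0.01). Mrps28 (-0.97, SE 0.16), Mrpl20 (-0.62, SE 0.11) and Mrps14 (-0.60, SE 0.14), a small subunit protein, fell most. Mrps22 was at 8.18, 8.20, 7.95 and 8.14 at day 4 and at 8.52, 8.73, 8.50, 8.57 and 9.06 in Ly6C- MFs, a difference of -0.56 (SE 0.11) without overlap. These KO groups did not overlap in 25.4% of all genes. Mrpl3, Mrps18c and Mrpl12 passed as lower too, with differences of -0.42 to -0.28. In the limma fit, the adjusted p of these values was 0.015 or less.

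Cell cycle genes moved the other way here. In WT 13 of 21 were higher and 5 lower at day 4 than in Ly6C- MFs of day 2 (median 0.63), for example Ccnb2, a mitotic cyclin, by 2.46 (SE 0.15). Complex I subunits had 0 higher and 12 of 34 lower (median -0.24), and import genes 0 higher and 13 of 22 lower (median -0.34), with Hspa9, the mitochondrial Hsp70, at -1.12 (SE 0.14). Of 9 regulators of mitochondrial biogenesis 5 were lower, namely Myc (-1.14, SE 0.15), Pprc1 (-0.81, SE 0.11), Gabpb1 (-0.68, SE 0.12), Gabpa (-0.41, SE 0.10) and Ppargc1a (-0.35, SE 0.10). Gabpa and Gabpb1 encode the subunits of the ETS factor whose core is common in the members' promoters. The part of these regulators in the members' differences was not tested. Muscle fibre markers were higher at day 4, with 6 of 10 passing. Their mean level ran from 6.61 to 6.80 in WT Ly6C- MFs of day 2 and from 7.05 to 7.15 at day 4. In KO, 8 muscle fibre markers were higher and 1 was lower. Fibroblast markers were higher for 5 of 7 in WT, from 6.41 to 6.68 at day 2 and from 6.83 to 7.29 at day 4. In KO 4 of 7 were higher. Dendritic cell markers were higher for 3 of 5 in WT and in KO, and T and NK cell markers for 3 of 6 and 2 of 6. B cell markers had 1 of 3 higher in each. Neutrophil markers had 1 of 10 higher and 3 lower in WT, and 1 higher and 2 lower in KO. The part of these markers in the result was not tested.

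**Figure D5:**
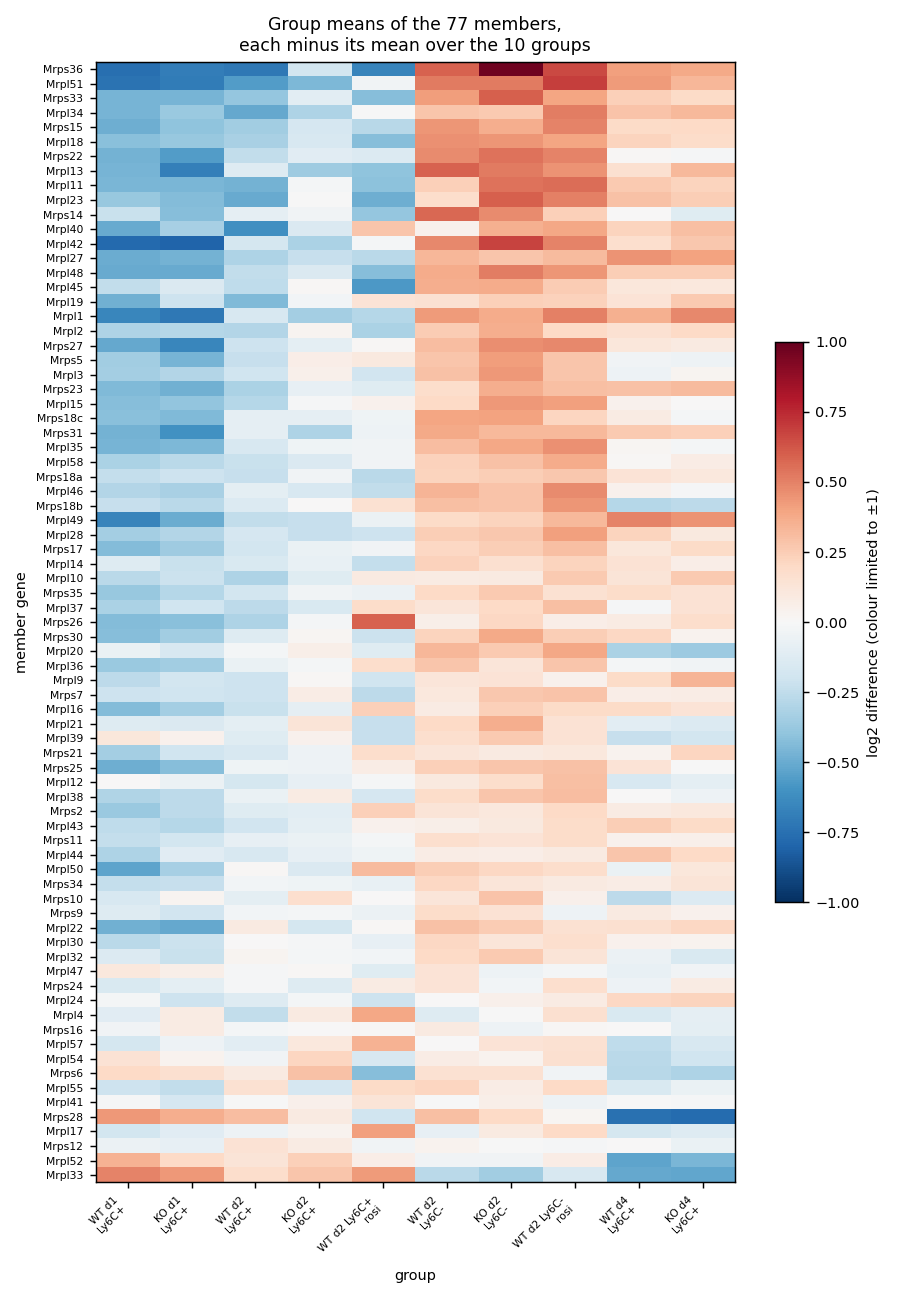
Mean of each member (y axis) in each of the 10 groups (x axis; d, day; rosi, rosiglitazone) minus its mean over the groups, in colour (log2, limited to ±1). Most members are low at day 1 and high in the 3 Ly6C- groups of day 2, and Mrpl33, in the lowest row, is high at day 1 and low in the Ly6C- and day 4 groups.

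The effect of the genotype was read within each condition. At day 1 and at day 4 among MFs labelled Ly6C+, and in Ly6C- MFs of day 2, 0 members passed between KO and WT by limma, where 0.0351%, 0.0652% and 0.201% of all genes passed. At an unadjusted p below 0.05 there were 2, 0 and 6 members, and 621, 592 and 1977 of the 19938 genes. The median differences were 0.02, -0.00 and 0.03 (all genes 0.01, -0.01 and -0.03). In Ly6C+ MFs of day 2, 3 members were higher and 1 was lower in KO, so 4 passed, where 1.88% of all genes passed, 1.09% as higher and 0.787% as lower, and the median was 0.11 (all genes -0.02). Mrps36 (0.53, SE 0.12), Mrpl23 (0.50, SE 0.12) and Mrps7 (0.28, SE 0.07), a small subunit protein, were higher and Mrpl55 (-0.32, SE 0.08), of the large subunit, was lower in KO, with limma adjusted p of 0.0194 to 0.0372. Mrps36 was at 7.34, 7.38, 7.16, 7.34 and 6.94 in KO, all above the highest WT array at 6.83. KO and WT arrays did not overlap in 1.51% of all genes.

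These 4 calls depend on which WT arrays are used. With WT day 2 replicates 1 to 3 alone 22 members passed, 20 higher and 2 lower in KO, where 15.1% of all genes passed, 7.94% as higher and 7.14% as lower. With replicates 4 to 6 alone none passed, where 1.62% of all genes did. Replicates 1 to 3 are the WT arrays with Lyz2 as low as in KO. Against replicates 4 to 6 the difference of Mrps36 was 0.45 (SE 0.15, limma adjusted p = 0.104) and that of Mrpl23 0.29 (SE 0.11, limma adjusted p = 0.17). In Ly6C- MFs 15 members passed with replicates 1 to 3 alone, where 14.4% of all genes did. A fit to the compared Ly6C+ arrays only gave 0 members. Without KO replicate 1 of Ly6C+ day 2 none passed, and without WT replicate 4 there were 13. Endothelial markers were lower in KO Ly6C+ MFs of day 2 for 4 of 6 genes, with mean levels of 6.55 to 6.73 in KO, of 7.12 to 7.29 in WT replicates 1 to 3 and of 6.50 to 6.97 in WT replicates 4 to 6. Lower there too were 1 of 7 fibroblast and 1 of 5 dendritic cell markers. The part of all these markers in the result was not tested.

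Rosiglitazone was compared with no treatment in WT MFs of day 2. These comparisons share the untreated WT arrays with those of the subsets and of the genotype. In Ly6C- MFs 0 members passed by limma (0.0351% of all genes), and the median was 0.03. There, 7 members and 1920 of the 19938 genes had an unadjusted p below 0.05. In Ly6C+ MFs 11 members were higher and 2 lower, so 13 passed, where 11.1% of all genes passed, 5.52% as higher and 5.6% as lower, and the median was 0.06 (all genes -0.02). Mrps26, a mitochondria-specific small subunit protein, was 0.90 higher (SE 0.21), Mrpl40 0.89 higher (SE 0.21) and Mrpl4, the homologue of bacterial L4, 0.63 higher (SE 0.13). Mrps6 was 0.52 lower (SE 0.16) and Mrps28 0.51 lower (SE 0.16). The limma adjusted p of these 5 was 0.0364 or less. Mrps26 under rosiglitazone was at 8.12, 7.29 and 8.35, where untreated arrays ran from 6.71 to 7.48, so 1 of the 3 treated arrays lay inside the untreated range. Of 59 cytosolic ribosomal proteins 1 was higher and 10 were lower, and 3 of 6 endothelial markers were lower, with mean levels of 6.56 to 6.72 under rosiglitazone, of 7.12 to 7.29 in untreated replicates 1 to 3 and of 6.50 to 6.97 in untreated replicates 4 to 6. Among other markers, 1 of 10 neutrophil and 1 of 5 dendritic cell markers were higher. Their part in the result was not tested.

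The rosiglitazone arrays had Lyz2 at 12.9 to 13.2, as WT day 2 replicates 4 to 6 did. With replicates 4 to 6 alone as the untreated group, 1 member passed, as lower, where 1.55% of all genes passed, 0.597% as higher and 0.953% as lower. With replicates 1 to 3 alone 28 passed, 21 higher and 7 lower, where 27.3% of all genes passed, 13.3% as higher and 14% as lower. Mrpl40 was at 10.5, 10.8 and 10.7 under rosiglitazone, against 10.4, 10.2 and 10.2 in untreated replicates 4 to 6 and 9.35, 9.24 and 9.20 in replicates 1 to 3. Its difference was 0.38 (SE 0.12, limma adjusted p = 0.0925) against replicates 4 to 6 and 1.40 (SE 0.12) against replicates 1 to 3. A fit to the compared arrays only gave 0 members. The count was 5 without rosiglitazone replicate 3, and the median turned to -0.0547 without rosiglitazone replicate 2. In Ly6C- MFs, 16 members passed with replicates 1 to 3 alone, where 12.8% of all genes did.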

How the data were processed

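Total RNA (Trizol) from the sorted MFs was amplified with the Ambion WT Expression kit and hybridised to Affymetrix mouse gene arrays. The authors normalized the arrays with RMA, and the deposited values are log2 values of 35556 probe sets on 44 arrays. The software version is not given in the sources used here. Values were used as deposited, so a difference depends on the RMA background correction and quantile step, and low values understate changes. Array medians ran from 6.64 to 6.77, no pair of arrays was identical, and no depth exists for arrays.

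Probe sets were named from the platform annotation, where 21789 have 1 symbol, and the probe set with the highest mean stood for each of 19938 genes. A model with 1 mean per group was fitted over the 44 arrays in R 4.3.3 (limma 3.58.1, functions lmFit and eBayes), with 34 residual degrees of freedom. Adjustment (Benjamini-Hochberg, threshold 0.05, two-sided) ran over all genes in each comparison. The fit was tested on simulated data. Members and lists were chosen with earlier results of these data known. Named members were the 8 largest rises and falls that passed between the WT subsets, the 3 largest of each in other comparisons, and Mrpl12, Mrpl3, Mrps12, Mrps22, Mrpl44 and Mrps18c. From other lists up to 4 genes with the largest change that passed were named, and Dap3, Tfam, Gabpa, Yy1 and Ddx28 were named after their values were seen. Same-numbered arrays correlated above 0.1 in every pair only for the rosiglitazone subsets. The main counts of all comparisons are from the fit without pairs, and the replicate number as a block was an alternative. Promoters came from RefSeq (GRCm38.p6) tables. Alternatives were array scaling, the filter on dim probe sets, other probe sets, the arrays in the fit, a replicate block and leaving out arrays. Apart from the WT day 2 replicate sets, counts under these alternatives are given without the share of all genes. A change in such a count need not be particular to the members.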

Additional observations from a re-analysis of the deposited data

Results flagged for a closer look

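Of 272 groups of values of named members and of the member median, 16 held an array far from the others by Dixon's criterion, and chance gives about 1 in 20. Among WT Ly6C+ arrays of day 2, replicate 5 was high for Mrpl22 (7.34, nearest array 6.88) and Mrpl55 (8.84, nearest 8.32) and low for Mrpl44 (6.44, nearest 6.87) and Mrps15 (8.80, nearest 9.49). Replicate 4 of the same group was high for Mrps27 (6.92, nearest 6.66) and for the member median (8.48, nearest 8.26). Replicate 4 of WT Ly6C- MFs was high for the member median (8.77, nearest 8.55) and low for Mrps28 (7.90, nearest 8.39), and replicate 2 was low for Mrpl3 (9.21, nearest 9.51). In KO Ly6C- MFs, replicate 5 was high for Mrpl22 (7.12, nearest 6.98) and replicate 2 for Mrpl51 (9.45, nearest 9.17). In KO at day 1, replicate 2 was low for Mrpl40 (9.79, nearest 10.14) and Mrps22 (7.37, nearest 7.62), and replicate 4 for Mrps18b (8.84, nearest 9.33). Mrps27 was high on WT day 1 replicate 1 (6.64, nearest 6.29) and on KO day 4 replicate 1 (7.26, nearest 6.89).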

How the results depend on the processing

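Between the WT subsets the count of members that passed stayed between 43 and 59 in all settings other than leaving out 1 array, and between 55 and 63 when 1 array was left out. The choice between WT day 2 replicates 1 to 3 and 4 to 6, listed as an alternative with earlier results known, moved most other counts. With replicates 1 to 3 alone the counts were 22 (WT day 2 against day 1), 26 (WT day 4 against Ly6C-), 22 and 15 (KO against WT at day 2, Ly6C+ and Ly6C-), 28 and 16 (rosiglitazone, Ly6C+ and Ly6C-), and 3, 7 and 7 for the rosiglitazone-by-subset, genotype-by-day 2 and genotype-by-day 4 tests. With replicates 4 to 6 alone they were 20 (WT day 2 against day 1), 0 (KO against WT, Ly6C+) and 1 (rosiglitazone, Ly6C+), the median of WT day 4 against Ly6C- was -0.25, and Mrps12 turned to 0.0039 between the WT subsets. A fit to the compared arrays only gave 2 (WT day 2 against day 1), 0 (KO against WT, Ly6C+) and 0 (rosiglitazone, Ly6C+). With the replicate number as a block, 59, 47 and 35 members passed between the WT, KO and rosiglitazone subsets, 16 for WT day 2 against day 1, 1 for KO against WT in Ly6C-, 26 and 9 for rosiglitazone in Ly6C+ and Ly6C-, and 1 for the rosiglitazone-by-subset test. In the block fit an array whose number had no partner in the other group did not add to the difference. The counts of 26 and 9 thus rest on untreated replicates 1 to 3 and are no check apart from that set. WT day 2 against day 1 rests there on replicates 1 to 4, and KO against WT in Ly6C- on replicates 1 to 5. The KO count of day 2 against day 1 was 6 with array medians set equal and 4 after quantile normalization. After quantile normalization the median difference was 0.24 and 0.17 between the WT and KO subsets, and 0.11 and 0.03 for day 4 against Ly6C+ day 2 in WT and KO. Leaving out 1 array gave 38 to 46 (KO subsets), 22 to 40 (rosiglitazone subsets), 5 to 14 and 5 to 21 (day 2 against day 1, WT and KO), 34 to 45 and 24 to 32 (day 4 against Ly6C+ day 2), 11 to 19 and 19 to 23 (day 4 against Ly6C-), 0 to 13 and 0 to 1 (KO against WT at day 2) and 5 to 19 (rosiglitazone, Ly6C+), with a median of -0.0547 for the last without rosiglitazone replicate 2. Most counts in this section are given without the share of all genes, so a change in a count need not be particular to the members. The causes were not tested.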
